A study of Mus musculus with 6 samples.

Results

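The Ikaros zinc finger family was examined in 6 primary thymic lymphomas of mice, with 1 microarray per tumour. Its 5 genes of the 18193 named on the array, Ikzf1, Ikzf2, Ikzf3, Ikzf4 and Ikzf5, were read by 13 of the 45101 probe sets, namely every probe set with exactly 1 of these names as its annotated symbol. The 3 Notch1f/f tumours came from mice with both Notch1 alleles floxed, at an age of 8 to 10 weeks, and the 3 Notch1+/+ tumours from mice with both alleles wild type, at 18 to 20 weeks. Common to all 6 mice were homozygosity for IkL (IkL/L), a hypomorphic allele of Ikzf1 that lowers the amount of Ikaros, and CD4-Cre, a transgene expressed during thymocyte development. The labels give the Notch1f/f tumours a deletion of the Notch1 promoter and first exon. No tumour or thymus with wild-type Ikzf1 was analysed here, so the effect of the IkL allele on any family member could not be measured, and age and Notch1 genotype cannot be told apart.

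Ikaros proteins are zinc finger transcription factors of the blood and immune lineages. A cluster of fingers near the amino terminus binds DNA, and fingers at the carboxy terminus let the members pair with themselves and with each other. Ikaros, the product of Ikzf1, associates with the NuRD chromatin complex in thymocytes and acts as a tumour suppressor there, and mice that lack its activity develop thymic lymphomas in which the Notch pathway is active. Helios (Ikzf2), Aiolos (Ikzf3) and Eos (Ikzf4) are its close relatives, and Pegasus (Ikzf5) is the most distant one.

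RefSeq promoter windows (GRCm38.p6) were matched for 2 of the 5 genes, Ikzf1 with 2 annotated starts and Ikzf5 with 1. They are shown because the probe sets of Ikzf1 differed from each other and an Ikzf5 probe set had the highest difference of the family, as given below. The 250 bases before each start are printed from 5′ to 3′ on the strand of the gene, with matches to GGGAA, the core letters that Ikaros fingers recognise, or to its reverse complement in capitals.
Ikzf1, upstream start, chr11:11685675-11685924, plus strand: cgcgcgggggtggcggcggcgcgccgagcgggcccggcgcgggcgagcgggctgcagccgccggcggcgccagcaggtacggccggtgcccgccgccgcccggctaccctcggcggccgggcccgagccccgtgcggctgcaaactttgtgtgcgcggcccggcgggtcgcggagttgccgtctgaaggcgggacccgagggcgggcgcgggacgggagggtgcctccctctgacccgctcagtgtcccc
Ikzf1, downstream start, chr11:11689927-11690176, plus strand: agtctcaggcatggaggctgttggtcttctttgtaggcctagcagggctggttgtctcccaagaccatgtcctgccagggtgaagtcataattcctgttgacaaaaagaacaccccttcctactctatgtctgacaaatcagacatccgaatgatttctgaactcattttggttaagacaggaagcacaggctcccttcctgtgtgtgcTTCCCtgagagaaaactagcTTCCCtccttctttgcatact
Ikzf5, chr7:131410479-131410728, minus strand: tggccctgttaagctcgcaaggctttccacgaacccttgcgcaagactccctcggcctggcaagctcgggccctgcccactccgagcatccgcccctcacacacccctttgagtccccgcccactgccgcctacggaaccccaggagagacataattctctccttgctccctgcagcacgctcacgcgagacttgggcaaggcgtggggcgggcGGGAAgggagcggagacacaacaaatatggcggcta
The window before the upstream Ikzf1 start held 0 matches to GGGAA on either strand, the one before the downstream start held 2, and the Ikzf5 window held 1, where 56.2% of the 32851 windows in the table held at least 1. The upstream Ikzf1 window was 82.0% G and C and had 44 CG dinucleotides, more than 99.5% of windows, while the downstream one was 47.6% G and C and had 1. The Ikzf5 window had 18. A match is a description of the letters and not of a bound site. The positions of the probe sets on the transcripts were not looked up, so no probe set is assigned to either Ikzf1 start.

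The values are MAS5 signal intensities on a linear scale, which combine the probes of a probe set into 1 number. Each array had been scaled to the same trimmed mean of 100, and between 23.1% and 25.0% of probe sets exceeded an intensity of 100. Probe sets differ in how well they bind their target, so the level of a gene is compared between tumours and not with that of another gene. Where 2 probe sets of a gene are subtracted within a tumour, the result is itself compared only between tumours. For tests, 16 was added to each intensity before taking log2, and a log2 difference is the mean of the Notch1f/f tumours minus that of the Notch1+/+ tumours on this scale, which understates changes of dim probe sets. Of the 13 family probe sets, 11 passed the filter on low values and were tested. The remaining 2, 1 of Ikzf3 and 1 of Ikzf4, did not pass.

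As a check of the labelled cell type, 8 of the 10 listed thymocyte markers had a named probe set, and their summed intensity was 14924 to 17269 in the Notch1f/f tumours, against 13088 to 14265 in the Notch1+/+ tumours. The T cell genes Cd3e and Thy1 were at 1277 or more in every tumour. Of the 8 markers, 2 (Cd3e and Cd8a) were higher in the Notch1f/f tumours with no overlap, where 8.13% of all tested probe sets were. Ptcra and Rag1 had log2 differences of -0.38 and -0.12 with overlapping groups, and the other 6 markers were above 0. Notch1, the floxed gene, was read by 2 probe sets. The dimmer one had 2026, 1346 and 2212 in the Notch1f/f tumours, against 1793, 656 and 568 in the Notch1+/+ tumours, and the brighter one 3294, 3043 and 3419 in the Notch1f/f tumours, against 3637, 2532 and 2838 in the Notch1+/+ tumours. Both overlapped between the groups, with log2 differences of 1.04 ± 0.40 and 0.13 ± 0.16 (SE, limma adjusted p = 0.319 and 0.752). This array type reads the 3′ part of transcripts, so that signal does not show whether the first exon is present. The deletion was not tested.

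None of the Ikaros family probe sets passed limma's test between the genotypes after adjustment over all 27022 tested probe sets, of which 0.0185% (5 probe sets, at an adjusted p under 0.05) were called. Adjusted p-values of the 11 tested family probe sets ran from 0.355 to 0.963, and their log2 differences from -0.79 to 0.48. A total of 6 were above 0 and 5 below, with a median of 0.12. Over all tested probe sets 45.0% were above 0 and the median was -0.044. At an unadjusted p under 0.05 there were 2 family probe sets of 11, 1 of Ikzf1 and 1 of Ikzf5, where 13.5% of all tested probe sets reached this level. The Ikzf1 probe set was lower and the Ikzf5 probe set higher in the Notch1f/f tumours, as were 7.60% and 5.94% of all tested ones. The groups did not overlap in 3 of the 11, against 18.6% of all tested, so neither count sets the family apart from the array as a whole. In these bulk tumour samples, fewer cells of a type and less RNA per cell cannot be told apart. The exact permutation test quoted below is two-sided and cannot give a p under 0.1 with 3 tumours against 3.

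**Figure D1:**
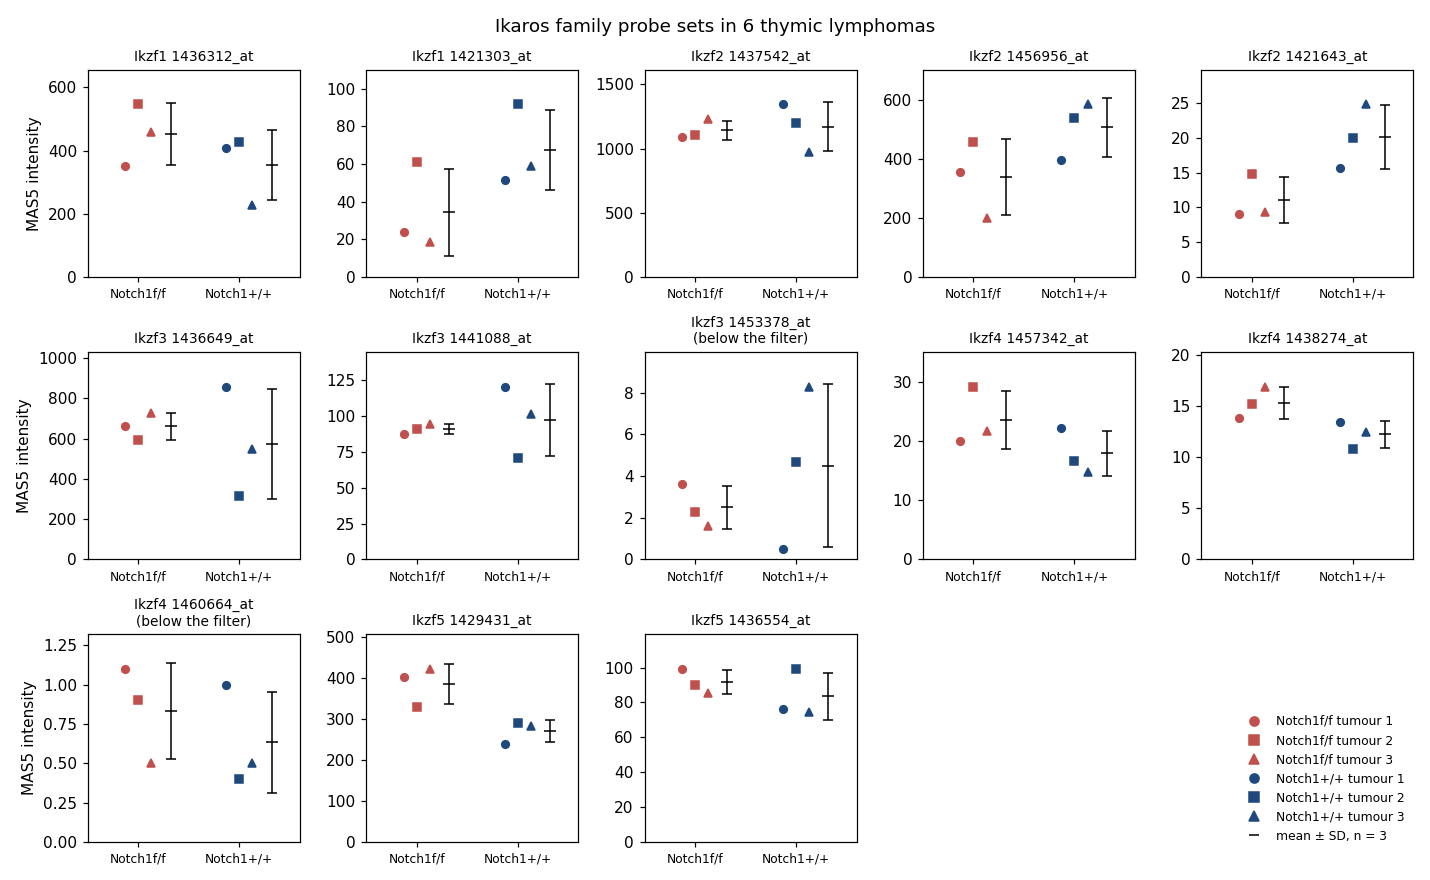
MAS5 intensity (vertical axes, linear, each panel with its own scale from 0) of the 13 Ikaros family probe sets in the 3 Notch1f/f and 3 Notch1+/+ tumours, with a symbol per tumour and the mean ± SD (n = 3) in black. The groups are separate for Ikzf2 1421643_at, Ikzf4 1438274_at and Ikzf5 1429431_at and overlap in each of the other 8 tested panels.

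Ikzf1, which encodes Ikaros and carries the IkL allele in every mouse here, was read by 2 probe sets that lay on opposite sides of 0. The brighter one, 1436312_at, had intensities of 350, 546 and 459 in Notch1f/f tumours 1, 2 and 3, against 409, 426 and 228 in Notch1+/+ tumours 1, 2 and 3. The groups overlapped, and the lowest value of all belonged to Notch1+/+ tumour 3. The mean was 452 ± 98.3 in the Notch1f/f tumours, against 354 ± 109.9 in the Notch1+/+ tumours (SD, n = 3 each), which put the log2 difference at 0.37 ± 0.28 (SE, adjusted p = 0.582 in limma, p = 0.4 in the exact permutation test). It was 0.22 with Notch1f/f tumour 2 left out and 0.088 with Notch1+/+ tumour 3 left out.

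The dimmer Ikzf1 probe set, 1421303_at, had intensities of 23.8, 61.0 and 18.4 in Notch1f/f tumours 1, 2 and 3, against 51.8, 91.8 and 59.0 in the Notch1+/+ tumours. Notch1f/f tumours 1 and 3 lay below every Notch1+/+ tumour, while Notch1f/f tumour 2 lay among them. Its log2 difference of -0.79 ± 0.35 was the lowest of the family, with an unadjusted p of 0.0479 in limma and an adjusted p of 0.365 (exact permutation p = 0.3). The 95% interval ran from -1.58 to -0.0089, or from 0.335-fold to 0.994-fold. The difference was -1.10 with 1 added in place of 16 and -0.43 with 64 added.

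Because the 2 Ikzf1 probe sets read the same gene in the same RNA, the difference between them was also taken within each tumour, as log2(intensity + 16) of the brighter minus that of the dimmer. This difference was 3.20, 2.87 and 3.79 in the Notch1f/f tumours, against 2.65, 2.03 and 1.70 in the Notch1+/+ tumours. Every Notch1f/f tumour lay above every Notch1+/+ tumour. The means were 3.29 ± 0.47 in the Notch1f/f tumours, against 2.13 ± 0.48 in the Notch1+/+ tumours (SD, n = 3 each), apart by 1.16 on the log2 scale, and the exact permutation p was 0.1, the smallest this design allows. Adjusted over the 5 genes for which the same comparison was made, the exact permutation p was 0.333. The gap was 1.48 with 1 added and 0.75 with 64 added, and 0.91 to 1.42 with each tumour left out in turn. The 2 probe sets thus differed unequally between the groups in these 6 tumours, at the floor of the exact test. Of the 5 genes compared, the groups were separate for Ikzf1 alone. How often such pairs separate the groups over the whole array was not computed, so this does not set Ikzf1 apart from other genes. Whether the probe sets read different Ikzf1 transcripts, or transcripts of the IkL allele, was not tested.

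**Figure D2:**
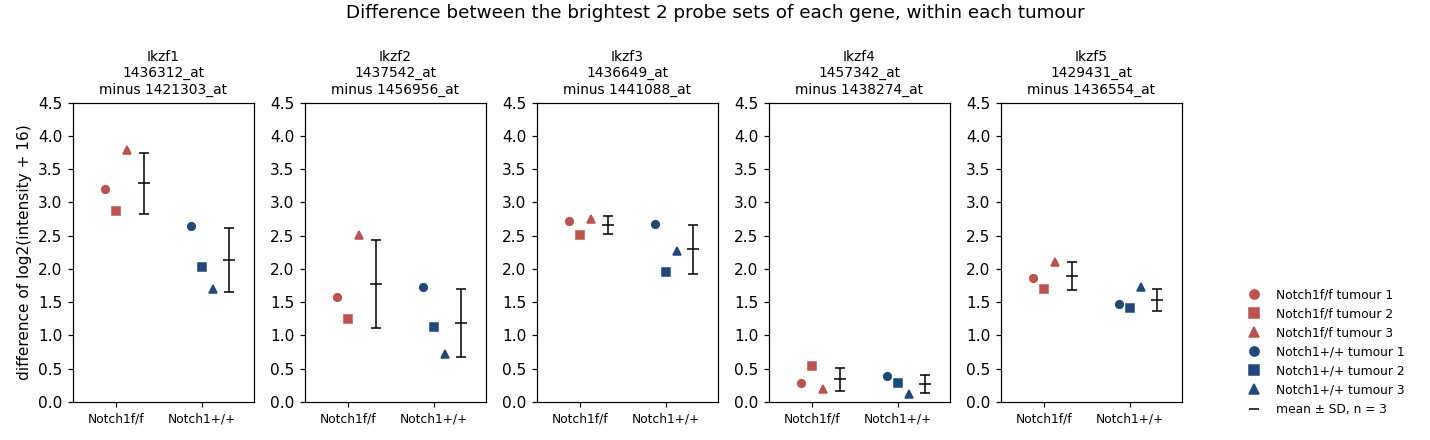
Difference of log2(intensity + 16) between the brightest 2 tested probe sets of each family gene within each tumour (vertical axes), with a symbol per tumour and the mean ± SD (n = 3) in black. For Ikzf1 the Notch1f/f tumours lie at 2.87 to 3.79 and the Notch1+/+ tumours at 1.70 to 2.65, and for the other 4 genes the groups overlap.

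Ikzf2 encodes Helios, which is found mainly in the T lineage and in regulatory T cells. Its brightest probe set, 1437542_at, had intensities of 1094, 1110.1 and 1228 in the Notch1f/f tumours, against 1346, 1197 and 974 in the Notch1+/+ tumours. The groups overlapped, and the highest and the lowest value were both in Notch1+/+ tumours. The log2 difference was -0.024 ± 0.18 (adjusted p = 0.963 in limma, p = 1 in the exact permutation test), with a 95% interval from 0.745-fold to 1.30-fold, and its sign turned with median centring of the arrays (0.061). Over the 6 tumours the SD of its log2 values was 0.16, lower than that of all but 8.42% of tested probe sets, whose median SD was 0.32.

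The other Ikzf2 probe sets had lower means in the Notch1f/f tumours. Probe set 1456956_at had 357, 460.3 and 202 in the Notch1f/f tumours, against 397, 540.2 and 587 in the Notch1+/+ tumours. Notch1f/f tumour 3 was lowest, and Notch1f/f tumour 2 lay above Notch1+/+ tumour 1. The log2 difference was -0.61 ± 0.30 (adjusted p = 0.404 in limma, p = 0.2 in the exact permutation test), and -0.30 without Notch1f/f tumour 3. Probe set 1421643_at was dim, at 9.0, 14.8 and 9.3 in the Notch1f/f tumours, against 15.6, 19.9 and 24.8 in the Notch1+/+ tumours. The groups did not overlap, as for 10.4% of all tested probe sets in this direction, and Notch1f/f tumour 2 and Notch1+/+ tumour 1 lay side by side. Its log2 difference was -0.42 ± 0.20 (adjusted p = 0.389 in limma, p = 0.1 in the exact permutation test), -0.82 with 1 added and -0.16 with 64 added. The within-tumour difference between the brightest 2 Ikzf2 probe sets was 1.77 ± 0.66 in the Notch1f/f tumours, against 1.19 ± 0.51 in the Notch1+/+ tumours (SD, n = 3 each, exact permutation p = 0.4). The gap of 0.59 between these means was 0.22 without Notch1f/f tumour 3 and 0.35 without Notch1+/+ tumour 3. Foxp3, the defining factor of regulatory T cells, was at most 10.9 in any tumour. The 9 regulatory T cell markers with a named probe set, of 10 listed, summed to 2079 to 2620 in the Notch1f/f tumours, against 851 to 3089 in the Notch1+/+ tumours. Of these 9, 2 (Ctla4 and Itgae) were higher with no overlap, where 8.13% of all tested probe sets were. The log2 difference was above 0 for 6 of the 9. Nrp1, Tnfrsf18 and Tnfrsf4 were below 0, at -0.65, -0.32 and -0.11, with overlapping groups. Ctla4, an inhibitory receptor of activated and regulatory T cells, had 543, 493 and 990 in the Notch1f/f tumours, against 62.1, 8.5 and 125 in the Notch1+/+ tumours (log2 difference 3.35 ± 0.57, limma adjusted p = 0.117). The part of regulatory T cells in the Ikzf2 and Ikzf4 values was not tested.

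Ikzf3 encodes Aiolos, which is abundant in B cells and is also made by thymocytes. Its brightest probe set, 1436649_at, had intensities of 664, 595 and 727 in the Notch1f/f tumours, against 859, 318 and 547 in the Notch1+/+ tumours. The Notch1+/+ tumours spanned the whole range of the Notch1f/f tumours. The mean was 662 ± 66.0 in the Notch1f/f tumours, against 575 ± 272 in the Notch1+/+ tumours (SD, n = 3 each), which put the log2 difference at 0.30 ± 0.32 (adjusted p = 0.693 in limma, p = 0.6 in the exact permutation test). Its sign turned without Notch1+/+ tumour 2 (-0.054), and it was 0.64 without Notch1+/+ tumour 1 and 0.57 with array weights. Probe set 1441088_at had the same order of the Notch1+/+ tumours, with 87.7, 91.3 and 94.4 in the Notch1f/f tumours, against 121, 70.6 and 101.2 in the Notch1+/+ tumours. Between the genotypes the log2 difference was -0.058 ± 0.25 (adjusted p = 0.937 in limma, p = 0.8 in the exact permutation test) and turned sign with quantile normalisation (0.020) and median centring (0.028). Probe set 1453378_at did not pass the filter, at 1.6 to 3.6 in the Notch1f/f tumours, against 0.5 to 8.3 in the Notch1+/+ tumours.

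Markers of B cells, another source of Aiolos in a thymus, were set beside these values. Their 9 named probe sets, of 10 listed markers, summed to 1331, 1838 and 3540 in Notch1f/f tumours 1, 2 and 3, against 1123, 511 and 739 in Notch1+/+ tumours 1, 2 and 3, and most of the summed signal came from the probe set of Ighm, an immunoglobulin heavy chain gene, which is not a measure of its share of RNA. Of the defining B cell markers, Cd79a reached 121 in Notch1f/f tumour 3 and at most 15.0 elsewhere. Pax5, which did not pass the filter, reached 22.9 there and at most 7.0 elsewhere. Other markers peaked elsewhere, Cd79b in Notch1f/f tumour 2 (64.8) and Blk in Notch1+/+ tumour 2 (151). The log2 difference was above 0 for 8 of the 9 markers and below 0 for Blk (-0.58). Notch1f/f tumour 3 had the second highest value of Ikzf3 on 1436649_at, and Notch1+/+ tumour 1 the highest. The part of B cells in the Ikzf3 signal was not tested.

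Ikzf4 encodes Eos, known from regulatory T cells, where it works with Foxp3. All of its probe sets were dim. Probe set 1457342_at had 20.1, 29.3 and 21.7 in the Notch1f/f tumours, against 22.3, 16.7 and 14.9 in the Notch1+/+ tumours, which put the log2 difference at 0.22 ± 0.21 (adjusted p = 0.652 in limma, p = 0.3 in the exact permutation test). The groups overlapped through Notch1+/+ tumour 1. Probe set 1438274_at had 13.8, 15.2 and 16.9 in the Notch1f/f tumours, against 13.4, 10.8 and 12.5 in the Notch1+/+ tumours. These groups did not overlap, as for 8.13% of all tested probe sets in this direction, and the log2 difference was 0.15 ± 0.17 (adjusted p = 0.723 in limma, p = 0.1 in the exact permutation test). Both differences stayed above 0 under every alternative in which these probe sets were tested, but their size did not hold. That of 1457342_at was 0.38 with 1 added, 0.097 with 64 added and 0.13 without Notch1f/f tumour 2, and that of 1438274_at was 0.30 with 1 added, 0.057 with 64 added and 0.23 with median centring. The third Ikzf4 probe set, 1460664_at, was at 0.5 to 1.1 in the Notch1f/f tumours, against 0.4 to 1.0 in the Notch1+/+ tumours, and did not pass the filter. Detection calls were not used here, so no call separates these signals from background.

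Ikzf5 encodes Pegasus, the most divergent member, which is made in many tissues. Probe set 1429431_at had intensities of 404, 329 and 422 in the Notch1f/f tumours, against 239.5, 289.8 and 283 in the Notch1+/+ tumours. Every Notch1f/f tumour lay above every Notch1+/+ tumour, with Notch1f/f tumour 2 nearest to them. The mean was 385 ± 49.5 in the Notch1f/f tumours, against 271 ± 27.4 in the Notch1+/+ tumours (SD, n = 3 each), 1.39-fold on the log2(intensity + 16) scale. This log2 difference of 0.48 ± 0.21 was the highest of the family, with a 95% interval from 0.017 to 0.94. It had an unadjusted p of 0.0438 in limma and an adjusted p of 0.355 (exact permutation p = 0.1), and 3323 of all tested probe sets had a p as small or smaller. With each tumour left out in turn it lay between 0.40 and 0.58. The dimmer probe set, 1436554_at, had 99.2, 89.9 and 85.6 in the Notch1f/f tumours, against 76.3, 99.2 and 74.7 in the Notch1+/+ tumours. The groups overlapped, and the log2 difference was 0.12 ± 0.23 (adjusted p = 0.844 in limma, p = 0.4 in the exact permutation test), and lay between 0.059 and 0.23 with each tumour left out in turn.

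**Figure D3:**
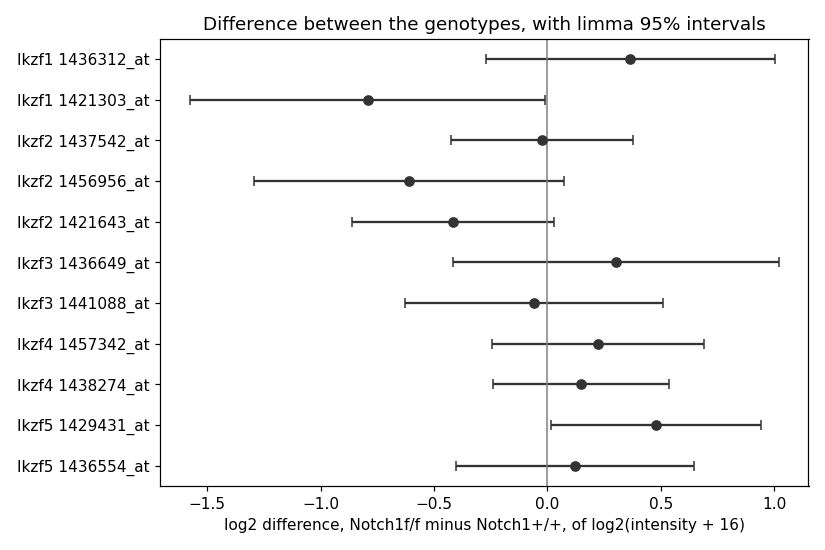
Log2 difference, Notch1f/f minus Notch1+/+, of log2(intensity + 16) for the 11 tested Ikaros family probe sets (points) with limma's 95% intervals (bars) and a line at 0. The intervals of Ikzf1 1421303_at (-1.58 to -0.0089) and Ikzf5 1429431_at (0.017 to 0.94) lie to 1 side of 0 before any adjustment for multiple tests, and the other 9 intervals span it.

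The tumours of a group were not alike in the family. Among the 11 tested probe sets, the Notch1f/f tumour nearest to the Notch1+/+ mean was tumour 2 in 6, tumour 1 in 3 and tumour 3 in 2. Notch1+/+ tumour 3 had the lowest value of the 6 tumours in 4 probe sets and the highest in 2. These counts were not made over all tested probe sets, so they do not set the family apart from the array. Within-tumour differences between the brightest 2 probe sets overlapped between the groups for Ikzf3, Ikzf4 and Ikzf5 too, with exact permutation p-values of 0.2, 0.7 and 0.2. When the tested probe sets of a gene were averaged, the log2 differences were -0.21 for Ikzf1, -0.35 for Ikzf2, 0.12 for Ikzf3, 0.19 for Ikzf4 and 0.30 for Ikzf5, with limma adjusted p-values of 0.417 to 0.863 over 12043 genes.

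Ikzf1 and Ikzf3 were the members whose brightest probe set spanned more than 1 on the log2 scale over the 6 tumours, by 1.21 and 1.39. Among 12043 genes, those with the smallest root mean square distance from Ikzf1 after each gene was centred on its mean were Spata3, Nes and Treml1, at 0.11, 0.12 and 0.12 on the log2 scale. All of these were dim, with intensities of at most 24.4. For Ikzf3 they were Ube3b, Rasl11b and Nek9, at 0.12, 0.13 and 0.14, with Nek9, a kinase of mitosis, at 784, 710 and 742 in the Notch1f/f tumours, against 835, 415 and 619 in the Notch1+/+ tumours. With 6 tumours and this many genes, nothing is read from these matches about shared control.

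Ikaros recruits histone deacetylases and chromatin remodellers, and 20 of 20 listed genes of NuRD, Sin3, CtBP and SWI/SNF partners were measured, each by its brightest probe set. None passed the adjusted threshold in limma in either direction, 5 of 20 had an unadjusted p under 0.05 (3 higher and 2 lower), where 13.5% of all tested probe sets did, and the median log2 difference was 0.075, against -0.044 over all tested probe sets. This median was 0.012 with array weights, 0.16 with median centring, 0.041 with quantile normalisation and 0.045 without Notch1f/f tumour 3. For the gene and marker lists, a share or median over all tested probe sets counts every probe set, not only each gene's brightest. The histone deacetylase Hdac2 had 782, 529.6 and 652 in the Notch1f/f tumours, against 1051, 1212 and 1032 in the Notch1+/+ tumours, which put the log2 difference at -0.75 ± 0.20 (limma adjusted p = 0.250). All 3 Notch1f/f values lay below all Notch1+/+ values, and so they did on a second of its 3 probe sets, but not on the dimmest one, whose log2 difference was 0.39. Hdac1, its paralogue in NuRD, had 1072, 1512 and 1025 in the Notch1f/f tumours, against 2029, 1622 and 1667 in the Notch1+/+ tumours, which put the log2 difference at -0.57 ± 0.20 (limma adjusted p = 0.297). The scaffold Sin3b and the NuRD subunit Gatad2b had log2 differences of 0.61 ± 0.23 and 0.66 ± 0.26 (limma adjusted p = 0.319 and 0.330), and their other probe sets lay between -0.28 and 0.70 and between -0.59 and 0.86. The fifth gene with an unadjusted p under 0.05 was Chd3, a relative of Chd4, with 317.6, 388.6 and 89.4 in the Notch1f/f tumours, against 52.4, 45.7 and 184 in the Notch1+/+ tumours (log2 difference 1.36 ± 0.58, limma adjusted p = 0.353), named after its values were seen. Its groups overlapped. Chd4, the remodelling ATPase of NuRD, had 409.6, 396 and 586 in the Notch1f/f tumours, against 358.5, 519 and 377 in the Notch1+/+ tumours, and was named here although outside the 4 smallest p-values. Its groups overlapped.

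Cereblon and its ubiquitin ligase can degrade Ikaros and Aiolos in human cells when bound by thalidomide-like drugs, and casein kinase 2 and protein phosphatase 1 set the phosphorylation of Ikaros. Of 11 listed genes of this machinery 10 were measured, and Csnk2b was not analysed here. In limma 0 passed the adjusted threshold and 0 had an unadjusted p under 0.05, and the median log2 difference was 0.023, which turned sign with array weights (-0.031) and without Notch1f/f tumours 1 (-0.0097) or 3 (-0.027) or Notch1+/+ tumour 1 (-0.054). Csnk2a2, a catalytic subunit of casein kinase 2, had a log2 difference of 0.42 ± 0.20 (limma adjusted p = 0.388), and its other tested probe sets lay between -0.18 and 0.28. The cereblon gene Crbn had 638, 391 and 311 in the Notch1f/f tumours, against 568, 514 and 511 in the Notch1+/+ tumours on its brightest probe set (log2 difference -0.30 ± 0.26, limma adjusted p = 0.629). Its other 2 probe sets were at -0.56, with overlapping groups, and at -0.38, with no overlap, as for 10.4% of all tested probe sets in this direction. Csnk2a1 and Cul4b, the remaining genes named by smallest p, had log2 differences of 0.23 ± 0.20 and -0.26 ± 0.23, and each had another probe set of the opposite sign. That of Cul4b was at 0.42 ± 0.20 (limma adjusted p = 0.393), with no overlap between the groups, as for 8.13% of all tested probe sets in this direction. A further Csnk2a1 probe set, 1419038_a_at, had 228, 169 and 205.5 in the Notch1f/f tumours, against 114, 117 and 118 in the Notch1+/+ tumours (log2 difference 0.70 ± 0.22, unadjusted p = 0.0106 and adjusted p = 0.290 in limma). The counts above do not include it, since they read each gene by its brightest probe set.

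Among 22 listed genes known to be regulated by Ikaros or Aiolos in mouse lymphocytes, 20 were measured and none passed the adjusted threshold in limma. Before adjustment 7 of 20 had a p under 0.05, 6 of them higher and 1 lower, where 5.94% of all tested probe sets were higher and 7.60% lower at this level. Of the 20 log2 differences, 12 were above 0 and 8 below, where 45.0% of all tested probe sets were above 0. The median log2 difference was 0.23, against -0.044 over all tested probe sets. This median was 0.12 with no filter, 0.14 with 64 added and 0.15 with array weights, and leaving out single Notch1f/f tumours put it at 0.035 (tumour 1), 0.12 (tumour 2) and 0.27 (tumour 3). Cdkn1b, the cell cycle inhibitor p27, had 1307, 757 and 1153 in the Notch1f/f tumours, against 338, 296 and 425 in the Notch1+/+ tumours, which put the log2 difference at 1.54 ± 0.25 (limma adjusted p = 0.0981). Every Notch1f/f tumour was higher, and the dimmer probe set, with overlapping groups, was at 0.50. Dtx1, a Notch-induced ubiquitin ligase, and the repressor Bcl6 had log2 differences of 0.49 ± 0.16 and 0.96 ± 0.35 (limma adjusted p = 0.295 and 0.311), while the dimmer probe set of Dtx1 was at 0.047 and that of Bcl6 at 0.24. Cd8a had 0.73 ± 0.24 on its brightest probe set (limma adjusted p = 0.295), while its other 4 probe sets lay between -0.43 and 0.046. The lower gene with an unadjusted p under 0.05 was Rag2, named after its values were seen. Its brightest probe set had 83.1, 180.4 and 13.5 in the Notch1f/f tumours, against 224.1, 123.1 and 462.9 in the Notch1+/+ tumours. The groups overlapped, and the log2 difference was -1.60 ± 0.66 (limma adjusted p = 0.348). Igll1 and Vpreb1, surrogate light chain genes of early B cells that Ikaros family proteins regulate, did not pass the filter. Their values were at most 6.6 in the Notch1f/f tumours. In the Notch1+/+ tumours they were at most 8.0, apart from 21.1 on 1 Igll1 probe set in tumour 3. The groups overlapped on every probe set of both genes.

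Summed markers of mature T cells, macrophages and natural killer cells, like those of B cells and thymocytes given above, were higher in every Notch1f/f tumour than in every Notch1+/+ tumour, and those of regulatory T cells and dendritic cells overlapped. No single marker passed the adjusted threshold in limma. The 6 mature T cell markers with a named probe set, of 7 listed, summed to 947 to 1523 in the Notch1f/f tumours, against 164 to 786 in the Notch1+/+ tumours. Of the 6, 5 were higher with no overlap, where 8.13% of all tested probe sets were. The remaining one, Il7r, had a log2 difference of -0.49 with overlapping groups. The defining Ccr7 and S1pr1 were at 2.01 ± 0.32 and 1.30 ± 0.29 (limma adjusted p = 0.0981 and 0.202). The 8 macrophage markers summed to 1151 to 2496 in the Notch1f/f tumours, against 227 to 761 in the Notch1+/+ tumours, with 5 of 8 higher and no overlap, against the same 8.13%. The defining macrophage gene C1qa, a complement component, had 236, 229 and 420.2 in the Notch1f/f tumours, against 21.1, 114 and 135 in the Notch1+/+ tumours. Csf1r, the other defining gene, had a log2 difference of 1.14 ± 0.37 (limma adjusted p = 0.294). Of the 8 macrophage markers, 7 were above 0, while Adgre1 was at -0.19. The groups overlapped for Adgre1, Cd68 and Fcgr1. The 5 natural killer cell markers with a named probe set, of 6 listed, summed to 2745 to 4484 in the Notch1f/f tumours, against 1618 to 2435 in the Notch1+/+ tumours, nearly all of this signal from the probe set of Gzma, while the defining Ncr1 was at most 4.5 in any tumour. The 6 dendritic cell markers, of 7 listed, summed to 45.9 to 129 in the Notch1f/f tumours, against 29.2 to 61.0 in the Notch1+/+ tumours, with the defining Flt3 at most 18.4 and Siglech at most 12.8. The part of these cells in the family's values was not tested.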

How the data were processed

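The authors deposited 1 table of MAS5 signal intensity values on a linear scale, 1 column per tumour; MAS5 is named in the submitters' processing notes, with no version. RNA came from mechanically disrupted tumours, without a sorting step, per the labels' protocols. Symbols came from the array annotation and were matched by Entrez identifier to RefSeq (GRCm38.p6), which changed 0 of 34945 single symbols. The 64 control probe sets and those whose mean log2(intensity + 16) was under the 40th percentile (intensity 7.60) were left out, which left 27022. The comparison of genotypes was fitted in limma 3.58.1 (R 4.3.3), using lmFit and eBayes with an intensity trend, two-sided, with Benjamini-Hochberg adjustment over all 27022 and a threshold of 0.05. No covariate was used. The fit was tested on simulated data. Precision is limited by the 3 arrays of each group. The members and gene lists were chosen with earlier results of these data known. Named genes were all members, Notch1, up to 4 genes with the smallest p in each list, 3 pattern neighbours, and defining markers. Genes with several probe sets were read by the brightest. Alternatives were a pseudocount of 1 or 64, no filter or the 60th percentile, array weights, quantile normalisation, eBayes without trend, each tumour left out, median centring, and probe sets averaged per gene. Figures used matplotlib 3.10.9 under Python 3.11.15.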

Additional observations from a re-analysis of the deposited data

How the results depend on the processing

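The count of Ikaros family probe sets past the threshold was 0 in limma under every alternative run, as was the count in each of the 3 gene lists under every alternative but averaging per gene, which was run for the family alone. Over all tested probe sets the count was 5 (2 higher and 3 lower). It was 3 with no filter (2 higher and 1 lower), 15 with median centring (10 higher and 5 lower), 27 with array weights (15 higher and 12 lower), and 2 to 14 with single tumours left out, the counts without Notch1f/f tumours 1, 2 and 3 being 3, 12 and 2 and that without Notch1+/+ tumour 3 being 14. Signs turned for 3 of the 11 tested family probe sets, on the log2 scale. Ikzf2 1437542_at was at 0.061 with median centring and at -0.15 to 0.080 with single tumours left out. Ikzf3 1441088_at was at 0.020 with quantile normalisation, 0.028 with median centring, 0.061 with array weights and -0.24 to 0.088 with single tumours left out. Ikzf3 1436649_at was at -0.054 to 0.64 with single tumours left out. With the tested probe sets of a gene averaged, Ikzf1 was at -0.21, against 0.37 on its brightest probe set. The within-tumour gap of Ikzf4 was -0.025 to 0.15 with single tumours left out. The cause of these shifts was not tested. The filter at the 60th percentile left both tested Ikzf4 probe sets and the dimmest of Ikzf2 without a value. No paired analysis was possible because the labels give the tumours no shared numbers.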
